A study of Mus musculus with 2 samples.

Results

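H3K27me3 (histone H3 trimethylated at lysine 27) was examined at 8 homeobox genes of the paired-like class, Prrx1, Prrx2, Pitx1, Pitx3, Shox2, Alx1, Alx4 and Uncx, among 21887 protein-coding genes. The 8 genes were taken by name, and a peak was assigned to a gene when it overlapped, by at least 1 bp, the annotated gene span extended by 10 kb on each side. The mark had been mapped by ChIP-seq, the sequencing of DNA fragments pulled down with an antibody to a chromatin protein, in whole sciatic nerve from 8-week-old male mice of the C57/BL6 strain, for which the labels name no treatment or mutation. There was 1 H3K27me3 ChIP library and 1 corresponding input library. How many animals went into each library is not stated in the labels, and they describe no sorting of cells. With 1 ChIP library there is no replicate, so no test was made and every value describes this 1 preparation. Each interval on reads is a 95% interval for counting error only. Intervals on the share of a list with a peak are exact 95% binomial intervals over its genes. They treat the genes as independent draws, although the lists were written with earlier results of these data known. A peak with few reads may reflect a weak mark in most cells or a strong mark in few of them, and these cannot be told apart in unsorted nerve. No input values were analysed here, so the background in such a peak was not measured.

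Polycomb repressive complexes lay down and read H3K27me3, and in differentiated tissues the mark covers many genes of embryonic regulators that are switched off. Paired-like homeobox genes encode transcription factors that bind DNA through a homeodomain and, unlike Pax proteins, have no paired domain. Prrx1 and Prrx2 are expressed in limb bud and craniofacial mesenchyme and, later, in connective tissue, which in the nerve includes fibroblasts. Pitx1 specifies hindlimb identity, and Pitx3 is required in the lens and in midbrain dopaminergic neurons. Shox2 acts in the proximal limb skeleton and the sinoatrial node, Alx1 and Alx4 in craniofacial and limb mesenchyme, and Uncx in the caudal part of each somite, which forms vertebral elements. No RNA was measured here, so the expression of the 8 genes in these nerves is not known from these data. The set is defined by gene names, and it includes genes best known outside limb and mesenchyme, such as Pitx3.

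Promoter sequences are shown for Prrx1 and Prrx2, whose promoters no listed peak overlapped, and for Shox2 and Uncx, whose promoters lay inside peaks. Each runs 5′ to 3′ from 250 bases before to 50 bases after an annotated start, is taken from RefSeq on GRCm38.p6, the same assembly as mm10, and has its CG dinucleotides, which read the same on both strands, in capitals. CG-rich promoters are the usual places of Polycomb binding in mammals.

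Prrx1 (chr1:163313601-163313900, minus strand): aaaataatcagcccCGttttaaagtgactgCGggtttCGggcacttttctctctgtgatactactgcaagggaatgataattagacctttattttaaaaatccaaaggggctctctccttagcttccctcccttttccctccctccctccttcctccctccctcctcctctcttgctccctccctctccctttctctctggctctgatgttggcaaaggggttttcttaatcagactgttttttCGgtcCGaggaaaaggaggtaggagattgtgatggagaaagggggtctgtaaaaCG

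Prrx2 (chr2:30845117-30845416, plus strand): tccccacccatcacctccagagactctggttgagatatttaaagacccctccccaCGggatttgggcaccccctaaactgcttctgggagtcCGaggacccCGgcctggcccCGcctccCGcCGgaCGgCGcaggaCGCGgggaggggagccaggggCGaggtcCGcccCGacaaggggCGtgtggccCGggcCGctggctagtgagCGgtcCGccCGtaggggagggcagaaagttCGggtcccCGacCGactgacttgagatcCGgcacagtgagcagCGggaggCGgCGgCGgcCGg

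Shox2 (chr3:66981722-66982021, minus strand): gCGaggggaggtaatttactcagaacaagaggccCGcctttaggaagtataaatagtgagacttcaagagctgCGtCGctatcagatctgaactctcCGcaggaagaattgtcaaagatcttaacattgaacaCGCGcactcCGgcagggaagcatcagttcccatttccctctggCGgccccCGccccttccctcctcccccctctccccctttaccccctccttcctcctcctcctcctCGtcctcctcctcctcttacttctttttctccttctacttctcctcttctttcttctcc

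Uncx (chr5:139543648-139543947, plus strand): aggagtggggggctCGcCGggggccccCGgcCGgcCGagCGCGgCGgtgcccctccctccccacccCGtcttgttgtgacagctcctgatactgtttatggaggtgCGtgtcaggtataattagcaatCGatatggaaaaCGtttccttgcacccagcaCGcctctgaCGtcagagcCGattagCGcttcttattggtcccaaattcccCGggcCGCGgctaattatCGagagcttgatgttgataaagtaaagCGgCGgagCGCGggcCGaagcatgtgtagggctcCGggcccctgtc

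An entry was found for 5 of the 8 genes, the fifth being Pitx3. The Prrx1 promoter held 6 CG dinucleotides, a number reached by 67.7% of 21263 promoters of protein-coding genes. The Prrx2 promoter held 28, reached by 18.8%, with 18 of them in its last 150 bases. The Pitx3 promoter held 20, Shox2 11 and Uncx 26, against a median of 13 over all promoters. Peaks overlapped the promoters of Shox2 and Uncx and not those of Prrx1, Prrx2 and Pitx3, beside 4.42% of all promoters. The number of CG dinucleotides did not separate these groups, since Prrx2 with 28 had no peak and Shox2 with 11 had one. Over all promoters, 0.713% of those with 0 to 4 CG dinucleotides were overlapped by a peak, against 5.44% of those with 5 to 14, 6.63% of those with 15 to 24 and 5.68% of those with 25 or more.

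H3K27me3 peaks lay at 7 of the 8 genes and were spread very unevenly among them. Of all protein-coding genes, 13.7% had a peak in the same kind of window, and of those no shorter than Uncx and no longer than Prrx1, the shortest and longest of the set, 13.2% did. Prrx1 had 57 reads in 2 peaks and Prrx2 had no peak. Among the other 6 genes, Uncx had 821 reads, Pitx1 422, Alx4 236, Shox2 216, Alx1 116 and Pitx3 17. The deposited score of each peak was read as a whole number of reads, on a scale that sets the weakest peak at 10 reads. A gene without a listed peak may still hold reads below that level. The 8 genes had a median of 166 reads, against 0 over all protein-coding genes. With peaks of at least 20 reads, a limit added after the data were seen, 6 of the 8 genes and 6.77% of all genes had a peak.

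**Figure D1:**
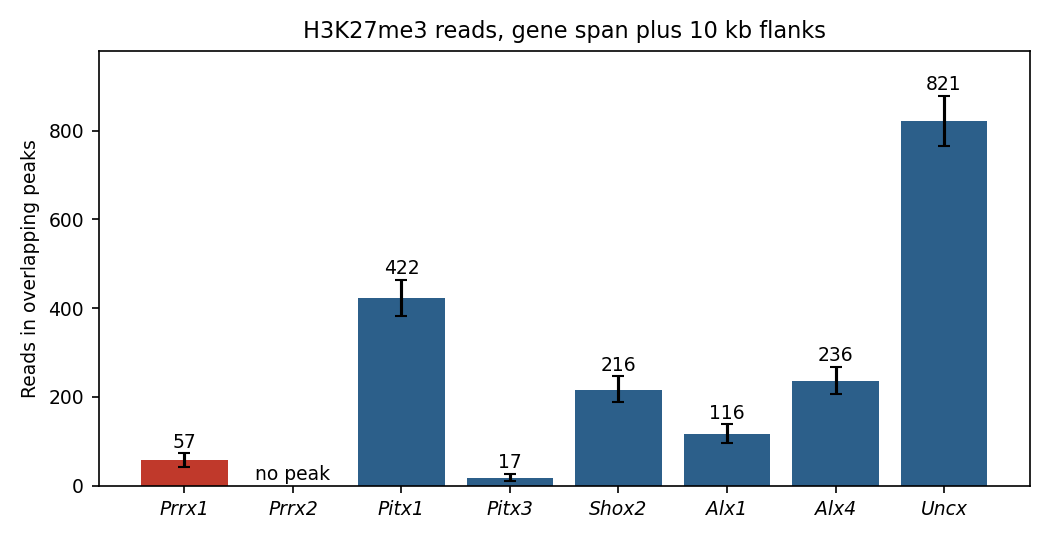
Reads in all peaks that overlap the gene span plus 10 kb flanks (vertical axis, linear) for Prrx1 and Prrx2 (red) and the other 6 genes (blue). Lines are exact 95% Poisson intervals, for counting error only. Prrx1 with 57 reads lies above Pitx3 with 17 and below the other 5 blue genes, and Prrx2 has no peak.

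Prrx1 and Prrx2 lay at the low end of the set, with Pitx3 beside them. The pair had a median of 28.5 reads and the other 6 genes a median of 226, a difference of -197.5 reads. Prrx1 held 0.0694 times the reads of Uncx (0.0521 to 0.0909), 0.135 times those of Pitx1 (0.101 to 0.178), 0.242 times those of Alx4 (0.178 to 0.324), 0.264 times those of Shox2 (0.194 to 0.355) and 0.491 times those of Alx1 (0.351 to 0.680). The order of Prrx1 and Alx1 turned round when the flanks were left out, with 57 reads at Prrx1 and 28 at Alx1. Prrx1 held 3.35 times the reads of Pitx3 (1.92 to 6.15), so the ranges of the pair and the other 6 genes overlapped. The Prrx genes are also long, 70027 and 36188 bp against a median of 12096 bp, and per kilobase of window the order was the same except that Shox2 stood above Alx4. Prrx1 had 0.633 reads per kb of window and Prrx2 none, against 0.514 for Pitx3, 2.78 for Alx1, 4.01 for Alx4, 7.19 for Shox2, 13.6 for Pitx1 and 33.8 for Uncx. Between neighbours in the order of total reads, the intervals of Alx4 (207 to 268) and Shox2 (188 to 247) overlapped, and those of the other neighbours with a peak did not.

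Both Prrx1 peaks lay inside the gene near its annotated start and left the start itself uncovered. Prrx1 (chromosome 1, 163245119 to 163315145, mm10) is on the minus strand, with the start used for the promoter above at 163313650. The larger peak spanned 1915 bp (163311099 to 163313013) with 41 reads (29.4 to 55.6), and its near edge was 637 bp downstream of that start. Of all promoter starts, 6.42% had a peak within 1 kb. The smaller peak was 500 bp wide, the least in the list (163308479 to 163308978), and held 16 reads (9.15 to 26.0). Together the peaks covered 3.45% of the gene. The gene span runs on beyond that start to 163315145, and the larger peak fell just short of the 2 kb limit from there. Prrx1 therefore had no peak within 2 kb of either gene end, a position at which 8.59% of all genes had a peak. No further peak lay within 100 kb of the gene, and no other gene shared the Prrx1 peaks in its own window.

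Prrx2 carried no listed peak over the gene or its 10 kb flanks (gene on chromosome 2, 30845064 to 30881251). The nearest peak lay 20759 bp beyond the high-coordinate end of the gene, had the lowest read number in the list, 10 (4.80 to 18.4), and fell inside Ptges, which encodes a prostaglandin E synthase. It was the only peak within 100 kb. The Prrx2 start was 56643 bp from it.

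**Figure D2:**
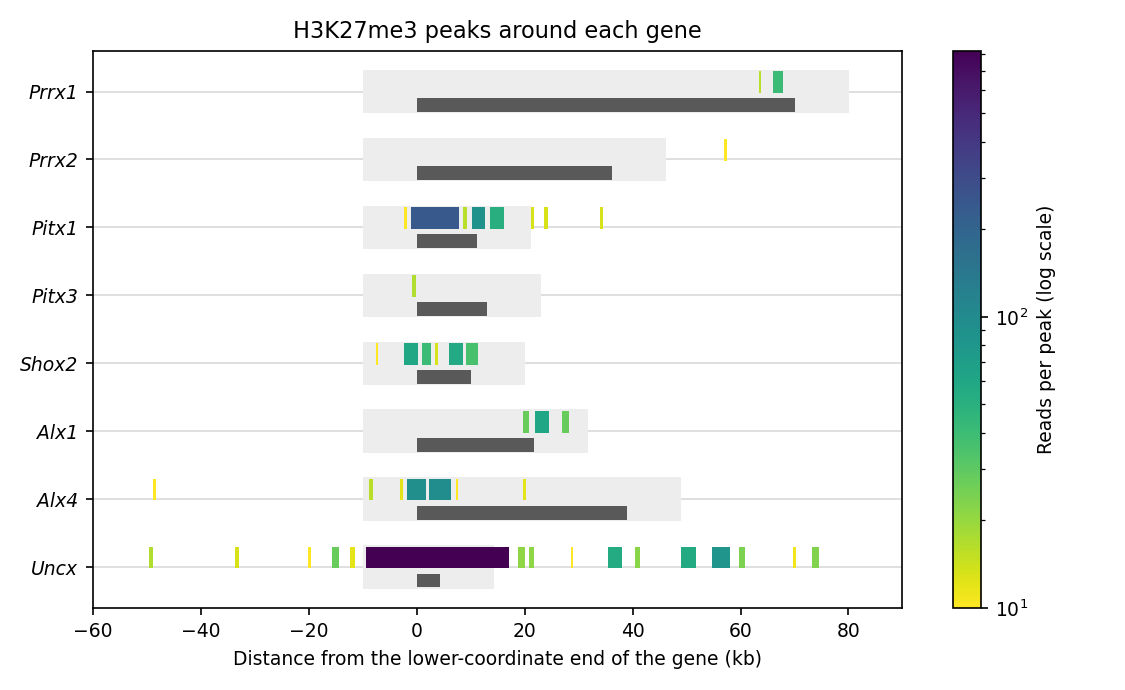
Peaks (coloured by reads, log colour scale) above the annotated gene (dark bar) and its window of gene span plus 10 kb flanks (light box), along the distance in kb from the lower-coordinate end of each gene. The Uncx peak of 26408 bp fills nearly the whole window, the Prrx1 peaks sit near the high-coordinate end of a long gene and the Prrx2 window is empty.

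Uncx lay inside the widest peak of the whole list. The peak spanned 26408 bp (chromosome 5, 139534489 to 139560896) with 821 reads (766 to 879), or 31.1 reads per kb, against a median of 21.0 reads per kb over all peaks. Only 2 peaks held more reads, and both were much denser, with 885 reads per kb over 5974 bp and 1105 reads per kb over 1126 bp. The gene (139543865 to 139548179) is only 4315 bp long and was covered in full, as was 97.4% of its window. By reads in the window Uncx ranked 2 of all protein-coding genes, after Hoxd11 with 838. The mark also went on around the gene. Within 100 kb of it lay 16 peaks with 1226 reads in all, of which 10 lay beyond the high-coordinate end, the largest of these with 82 reads 50330 bp from the gene. Peaks merged across gaps of up to 5 kb gave a domain of 41849 bp with 6 peaks, which ranked 12 in width of 3818. A long non-coding RNA gene, 4930500L23Rik, ends 2526 bp from Uncx and overlapped the same wide peak.

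Pitx1 and Pitx3, which belong to the same family, stood far apart. Pitx1 (chromosome 13, 55825044 to 55836190) had 422 reads (383 to 464) in 6 peaks, and 85.9% of the gene was covered. Its main peak spanned 8906 bp (55823937 to 55832842) with 244 reads, ran over the low-coordinate end of the gene and reached the neighbouring sperm ion channel gene Catsper3. A second peak of 2518 bp over the high-coordinate end had 88 reads and, at 34.9 reads per kb, the highest density of all 25 peaks of the set. Pitx3 (chromosome 19, 46135281 to 46148325) had 1 peak of 632 bp with 17 reads (9.90 to 27.2), and none of the gene itself was covered. That peak (46134465 to 46135096) lay 185 bp beyond the low-coordinate end, inside the fatty acid elongase gene Elovl3, whose annotation overlaps Pitx3 by 414 bp. It was 13229 bp downstream of the Pitx3 start, which is at the high-coordinate end. The peak can therefore be assigned to either gene.

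Shox2 and Alx4 carried chains of medium-sized peaks. Shox2 (chromosome 3, 66971723 to 66981771) had 216 reads in 6 peaks between 500 and 2517 bp wide, which covered 56.5% of the gene, and the peak with the most reads, 59, held only 27.3% of them. The promoter shown above lay in the peak with 36 reads (66980922 to 66982994), which had the lowest density of the set, 17.4 reads per kb, and also overlapped Rsrc1, an RNA splicing gene whose annotation overlaps Shox2 by 408 bp. Alx4 (chromosome 2, 93642434 to 93681341) had 236 reads in 6 peaks, and 17.3% of this longer gene was covered. Its 2 largest peaks, of 3641 bp with 91 reads and 3984 bp with 95 reads, stood next to each other at the low-coordinate end. No other protein-coding gene had an Alx4 peak in its window. These genes and Pitx1, each with 6 peaks, were the 3 of the set with 5 peaks or more, a number that 1.17% of all genes reached.

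Alx1 had fewer reads than Alx4, most of them beyond the annotated gene. Alx1 (chromosome 10, 103007847 to 103029549) had 116 reads (95.9 to 139) in 3 peaks and 5.46% of the gene was covered. The peak with the most reads, 60, spanned 2570 bp (103029713 to 103032282), began 164 bp beyond the high-coordinate end and overlapped the predicted protein-coding gene Gm34298. The other 2 peaks held 28 reads each, 1 inside the gene and 1 lying 5235 bp beyond it, in the flank of Lrriq1, a gene of a protein with leucine-rich repeats.

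The peaks of the set had a higher median width and read number than the list as a whole, with densities near the median of the list. The 25 peaks had medians of 1197 bp and 28 reads, against 643 bp and 14 reads over all 6018 peaks, and 6 of the 25 (24%) had the shortest width of 500 bp, against 41.6% of all peaks. Their densities ran from 17.4 to 34.9 reads per kb with a median of 23.4. Only the Uncx peak and the main Pitx1 peak exceeded 5 kb, so 2 of the 8 genes had such a peak, against 0.987% of all genes. The Uncx peak alone held 43.6% of the 1885 reads of the set. At the other end, 11 of the 25 peaks held fewer than 20 reads, among them the smaller Prrx1 peak and the only Pitx3 peak. In the whole list only 2125 of the 6018 peaks held 20 reads or more. Peaks below 20 reads were thus the smaller part of the set but the larger part of the list.

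**Figure D3:**
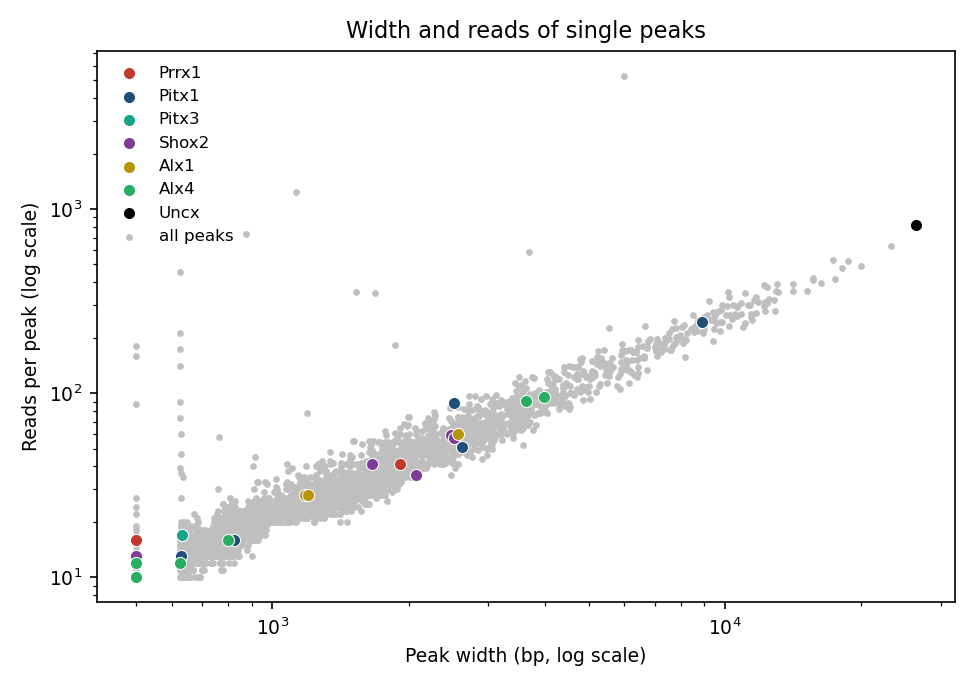
Width in bp (horizontal axis, log scale) against reads per peak (vertical axis, log scale) for all 6018 peaks (grey) and the 25 peaks in the windows of the set (coloured by gene). The coloured points follow the main band of grey points, and the Uncx peak at 26408 bp and 821 reads is the widest of all.

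Among all genes with a peak, Uncx, Pitx1, Alx4, Shox2 and Alx1 stood above the upper quartile of reads and Prrx1 just below it. These 5 genes had at least 100 reads, as had 2.19% of all protein-coding genes. Genes with a peak had quartiles of 13 and 63 reads, so Prrx1 with 57 lay well above the median of 25 and just under the upper quartile, and Pitx3 with 17 between the lower quartile and the median. By rank, Uncx was at 2, Pitx1 at 77, Alx4 at 209, Shox2 at 233, Alx1 at 422, Prrx1 at 804 and Pitx3 at 1868, of 2988 genes with a peak. At least 50% of the gene was covered at Uncx, Pitx1 and Shox2, and at 1.15% of all genes. The gene itself, without flanks, held a peak at 6 of the 8 genes and at 9.77% of all genes.

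**Figure D4:**
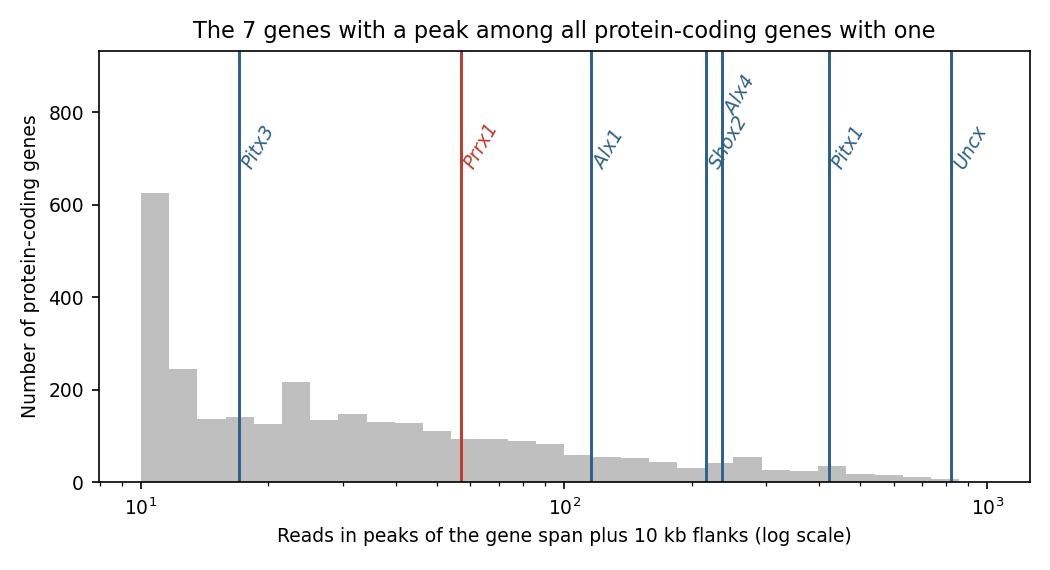
Number of protein-coding genes (vertical axis, linear) by reads in peaks of the gene span plus 10 kb flanks (horizontal axis, log scale), for the 2988 genes with a peak (grey bars). Vertical lines mark Prrx1 (red, 57 reads) and the other 6 genes (blue). Prrx2 has no peak and is not drawn.

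Most related genes also carried the mark. Of 22 other paired-like homeobox genes, 18 had a peak (81.8%, exact 59.7 to 94.8), beside 13.7% of all protein-coding genes. The median over all 22 was 98 reads. Among them were Otx2, a head and forebrain patterning factor, with 458 reads, and Otp, a hypothalamic neuron factor, with 416. The gene closest to Prrx1 and Prrx2 by name, Drgx (Prrxl1 in the annotation), a factor of pain-sensing circuits named after its value was seen, had 81 reads in 3 peaks. No peak lay at the photoreceptor factor Crx, the pituitary and forebrain factor Hesx1, the intestinal factor Isx and Sebox, the last named after its value was seen. Prrx2 therefore shared the lack of a peak with 4 of these 22 genes. Of all 21887 protein-coding genes, 18899 had none.

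Other genes of limb patterning and mesenchyme were also marked in most cases. Of 41 such genes, 37 had a peak (90.2%, 76.9 to 97.3), beside 13.7% of all protein-coding genes. The 8 genes of the set had a median of 166 reads and all 41 of these a median of 191. The most reads were at the digit regulator Hoxd13 with 813, the dorsal limb factor Lmx1b with 684 and the forelimb factor Tbx5 with 655. Tbx4, which acts downstream of Pitx1 in the hindlimb and was named after its value was seen, had 239 reads in 4 peaks. No peak lay at the signalling ligand gene Bmp7, the hedgehog effector Gli3, the mesoderm factor Meox2 or Tcf15, a somite factor named after its value was seen. The list was written with earlier results of these data known and is no independent evidence for its share.

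Most fibroblast markers, like most protein-coding genes, had no peak, and Schwann cell markers had peaks of few reads or none. Of 20 fibroblast markers, 2 had a peak (10%, 1.24 to 31.7), beside 13.7% of all genes. They were Pdgfra, a growth factor receptor, with 85 reads in 4 peaks and Thy1, a surface glycoprotein, with 20 reads. Cd34, Clec3b and Col15a1 were among the 18 without one. Prrx1 with 57 reads lay between Pdgfra and Thy1. Prrx2 had no peak, a state shared by those 18 markers and by 18899 of all 21887 protein-coding genes. Of 10 Schwann cell markers, 5 had a peak (50%, 18.7 to 81.3), beside 13.7% of all genes. Their reads were at most 18, at Egr2, with 14 at Ncam1 and 11 at Mbp, while Mag and Pmp22 were among those with none. Of 9 endothelial and immune markers, 1 had a peak (11.1%, 0.281 to 48.3), beside 13.7% of all genes. It was Flt1, with 124 reads, and the other 8, such as Adgre1, Cd68 and Cdh5, had no peak. Which cells of the nerve carry the mark at Prrx1 was not measured.

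**Figure D5:**
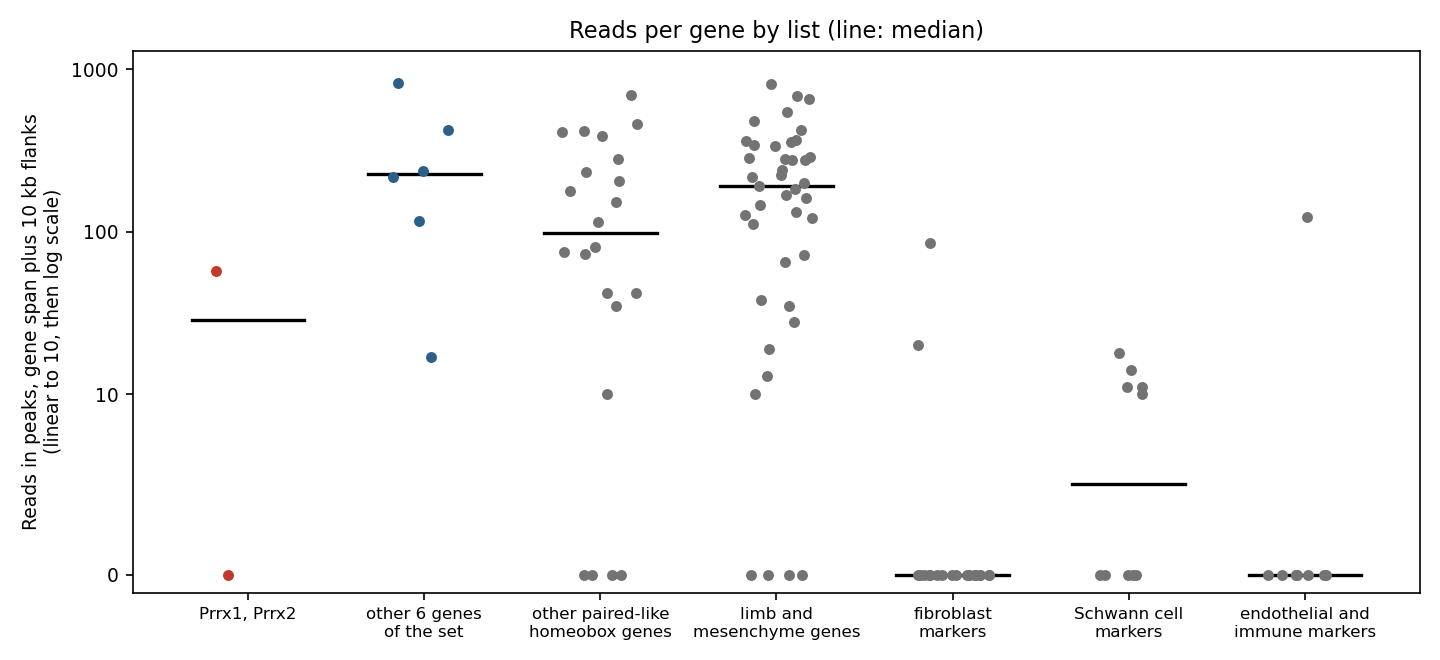
Reads in peaks of the gene span plus 10 kb flanks (vertical axis, linear to 10 and log above) for each gene (points) of 7 lists, with the median of each list as a line. The median is 28.5 reads for Prrx1 and Prrx2, 226 for the other 6 genes of the set, 98 for other paired-like genes, 191 for limb and mesenchyme genes, 0 for fibroblast markers, 5 for Schwann cell markers and 0 for endothelial and immune markers.

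Several peaks of the set could belong to a neighbouring gene. Peaks that touch another protein-coding gene held 254 of the 422 reads at Pitx1, 36 of 216 at Shox2, 60 of 116 at Alx1 and all 17 at Pitx3. At Pitx1, 244 of the 254 reads came from its main peak (55823937 to 55832842). Only the low end of that peak reached Catsper3, which ends at 55824048, and most of the peak lay over Pitx1. Without all peaks that touch another protein-coding gene, a count added after the data were seen, Prrx1 had 57 reads and Prrx2 none. The others had 821 at Uncx, 236 at Alx4, 180 at Shox2, 168 at Pitx1, 56 at Alx1 and 0 at Pitx3. Prrx1 then lay beside Alx1 and above Pitx3. A peak was kept at 6 of the 8 genes, but the share of all genes was not computed for this count. The number of reads per gene rests on counts of 1 library, and no value of the input could be set beside it, as no input values were analysed here.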

How the data were processed

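The deposited file is 1 list of 6018 peaks from the ChIP library, with a position and the authors' score for each. The submitters' processing notes name Bowtie and the build mm10. Which caller made the peaks, at which threshold, with which use of the input and in which unit the deposited score stands is not stated in the labels or the file header, and no version of Bowtie is given. Scores are whole multiples of 1 step of 2.57 within 0.05 for 99.9% of peaks, so each was divided by that step and rounded to reads. The step was sought only near the value that makes the lowest score, 25.7, equal to 10 reads. All read numbers and their intervals rest on that choice. All 6018 peaks held 185225 reads, with a median of 14 per peak. The exact 95% Poisson interval of 10 reads, the weakest peak, runs from 4.80 to 18.4.

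Gene spans and promoters came from RefSeq tables of GRCm38.p6. All 8 genes matched by symbol, and 1 list gene, Drgx, by a synonym. The whole of an overlapping peak's reads was counted. Peaks merged within 5 kb formed domains. The genes, lists and comparisons were chosen with earlier results of these data known. Named genes are the 8, protein-coding genes that share a peak with them and, of each list, the 3 with most reads and the first 3 alphabetically without a peak. Some genes that this rule takes are not reported here. Overlap counting was tested on simulated peaks. Python 3.11.15, pandas 2.3.3, NumPy 2.4.6 and SciPy 1.17.1 were used. Windows, peak thresholds and overlap were varied.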

Additional observations from a re-analysis of the deposited data

How the results depend on the processing

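No paired analysis was possible because the series has 1 ChIP library, and no replicate could be left out. The count of 7 genes with a peak ran from 6 to 8 over all settings tried, and was 8 only with 50 kb flanks, where Prrx2 gained its peak of 10 reads and 25.5% of all genes had a peak. The median over the 8 genes of 166 reads was 131.5 with the gene span alone, 89.5 within 2 kb of gene ends and 112.5 without peaks that touch another protein-coding gene. The median of 7346 covered bp was 3365 with the gene span alone, 5668 with 2 kb flanks, 3302 within 2 kb of gene ends, 6687 with peaks at or above the median score, 6288 with peaks of at least 20 reads and 4200 without peaks that touch another protein-coding gene. The median of Prrx1 and Prrx2 minus that of the other 6 genes stayed below 0 in each setting tried, at -142 within 2 kb of gene ends and -145.5 without touching peaks, against -197.5. With 50 kb flanks, 4 of the 20 fibroblast markers and 2 of the 9 endothelial and immune markers had a peak, beside 25.5% of all genes. Of the 10 Schwann cell markers 2 had a peak at or above the median score, beside 8.92% of all genes. With peaks of at least 20 reads the count was 0, beside 6.77% of all genes. Single genes depended on the window: Prrx1 had 0 reads within 2 kb of gene ends, Alx1 had 28 with the gene span alone, below the 57 of Prrx1, and Pitx3 had 0 with the gene span alone or peaks of at least 20 reads. The settings of at least 20 reads and of touching peaks were added after the data were seen. With 10 reads at the weakest peaks, depth limits what can be said of genes without a peak.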
